A study of Mus musculus with 7 samples.

Results

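The 40 copies of the U4 small nuclear RNA (snRNA) were the transcripts that the deposited CIRS-seq counts list under the exact symbol U4, each of them a gene of its own, out of 13218 genes in all. CIRS-seq reads RNA structure in a lysate. Bases that pair with nothing are modified by DMS or by CMCT. DMS reacts mainly with A and C. CMCT reacts mainly with U and pseudouridine, and to a lesser extent with G. Reverse transcription (RT) then stops just downstream of the modified base. The lysate came from E14 mouse embryonic stem cells (ESCs), a line of 129/Ola origin, and was treated with Proteinase K before probing in every group, so that proteins no longer covered the RNA. There were 2 biological replicates each of lysate treated with DMS (a pool of reactions at 50 to 200 mM, for 2 min at 30 °C), of lysate treated with CMCT (a pool at 10 to 50 mM, for 20 min at 30 °C), and of non-treated lysate (NT), which gives the natural RT stops. A further RNA-seq library of the same line, made without probing from isolated total RNA depleted of ribosomal RNA, was deposited as alignments. Summed over all transcripts listed, each CIRS-seq library held from 181944556 to 338201940 counted RT stops, and the U4 copies took 252 to 549 per 1000000. These sums count a stop again on each transcript or copy that lists it, so they are not numbers of distinct stops. In the RNA-seq library, 8 of 8 markers of ESCs were detected, at 6.55 to 366 alignments per 1000000 (CPM), while 4 of 4 fibroblast markers were at 0.045 to 0.583, 2 of 2 mesoderm markers at 0.224 to 0.314, 2 of 3 ectoderm markers at up to 7.36 and 4 of 5 endoderm markers at up to 13.9, against a floor of 0.135 that 3 alignments would give.

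U4 is the snRNA that keeps U6 inactive until the spliceosome is assembled. It base pairs with U6 through 2 stretches, known as stem I and stem II, and between them it folds into a 5′ stem-loop with a kink-turn bulge, the binding place of the protein Snu13 (gene Nhp2l1) and then of Prpf31. Towards its 3′ end come a central single-stranded region, a 3′ stem-loop and the site on which the ring of Sm proteins is built. During activation the helicase Brr2 (gene Snrnp200) pulls U4 off U6, and Sart3 brings both RNAs together again for the next round of splicing. Mammalian genomes hold a few U4 genes and many partial or diverged copies.

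The sequence on which the results turn is that of U4.12, the copy with the highest mean identity to the other copies (66.8%) among the 7 copies of 140 to 150 bases, which was therefore used to number all others. It lies on mm9 at chr5:115939468-115939608 on the plus strand and is the whole of the single exon of a noncoding gene of 141 bases (ENSMUSG00000075998). It is shown because it carries the U4 strands of the U4/U6 duplex. The letters are those of the genome, 5′ to 3′ along the RNA, so that T stands for U, and capitals mark the bases that pair with U6.
U4.12: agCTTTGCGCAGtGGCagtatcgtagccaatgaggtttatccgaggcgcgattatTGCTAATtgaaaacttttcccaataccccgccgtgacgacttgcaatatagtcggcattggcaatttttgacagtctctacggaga

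Counted from 1 at the 5′ end, U4 56 to 62 (TGCTAAT) is the U4 strand of stem I, with 7 pairs, all of them Watson-Crick. U4 3 to 12 (CTTTGCGCAG) is that of stem II, with 10 pairs, 9 of them Watson-Crick, and stem II went on past a mismatch at U4 13 with 3 further pairs at U4 14 to 16. In all, 20 U4 bases had a partner in U6. The other copies shown are those whose counts are given in full below. U4.9 lies downstream of U4.12 on the same strand, at chr5:115940263-115940403 (ENSMUSG00000075779), and differs from it by G88A and C99A, with the U4.12 base given before the position; both differences are in capitals. In the others, capitals mark the stretch that aligned to U4.12. U4.25 (chr16:35234882-35235009, minus strand, ENSMUSG00000084581) aligned over U4 1 to 76 with 75 of 76 bases identical, and U4.2 (chr17:43591204-43591346, plus strand, ENSMUSG00000064582) over U4 1 to 77 with 74 of 77. U4.5 (chr8:126881138-126881223, plus strand, ENSMUSG00000064664) aligned over U4 1 to 67 with 63 of 67, and U4.1 (chr5:38937697-38937832, plus strand, ENSMUSG00000064419) over U4 1 to 68 with 66 of 67.
U4.9: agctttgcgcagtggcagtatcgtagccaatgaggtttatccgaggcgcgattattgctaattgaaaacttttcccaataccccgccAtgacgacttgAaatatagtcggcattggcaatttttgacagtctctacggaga
U4.25: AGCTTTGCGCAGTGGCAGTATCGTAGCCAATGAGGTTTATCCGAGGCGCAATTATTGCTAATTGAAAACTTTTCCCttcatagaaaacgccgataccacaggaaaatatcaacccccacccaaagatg
U4.2: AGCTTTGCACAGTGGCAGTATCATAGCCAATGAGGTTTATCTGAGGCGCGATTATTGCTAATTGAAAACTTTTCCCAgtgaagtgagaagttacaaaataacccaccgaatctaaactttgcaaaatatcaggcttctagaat
U4.5: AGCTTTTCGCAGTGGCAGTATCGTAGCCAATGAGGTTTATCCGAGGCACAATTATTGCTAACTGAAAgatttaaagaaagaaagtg
U4.1: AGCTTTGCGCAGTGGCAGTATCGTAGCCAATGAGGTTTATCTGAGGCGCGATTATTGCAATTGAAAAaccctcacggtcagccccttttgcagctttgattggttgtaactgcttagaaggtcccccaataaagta

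The 40 copies lay on 18 chromosomes and were 80 to 171 bases long, with a median of 124.5. Of these, 32 aligned from U4 position 1, 35 had lost their likeness to U4.12 by position 80, and 5 aligned past position 100. Most copies thus carried both U6-pairing stretches and the 5′ stem-loop but not the 3′ part of U4.

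RT stops were concentrated on few copies. U4.12 held 21061 and 14100 RT stops in NT replicates 1 and 2, 13364 and 27744 in DMS, and 25836 and 17780 in CMCT. U4.9 held 20885 and 14032 in NT, 13224 and 27541 in DMS, and 25495 and 17505 in CMCT. Both copies together took 43.3% ± 3.51 (SD, n = 6 libraries) of the RT stops of all 40 copies, from 39.5% to 48.96% in single libraries. U4.25 held 13569 and 8426 RT stops in NT, 7859 and 20143 in DMS, and 13654 and 8462 in CMCT. U4.2 held 11350 and 8085, 5501 and 12773, and 12208 and 8464 in the same order. U4.5 held 9123 and 4472, 5408 and 5003, and 7298 and 3157. U4.1 held 5619 and 2353, 4244 and 11509, and 5582 and 1836. Per 1000000 RT stops of the library, DMS replicate 2 was the higher DMS library and NT replicate 1 the higher NT library in all 6 of these copies, while in CMCT replicate 2 was the higher in U4.12, U4.9, U4.25 and U4.2 and replicate 1 in U4.5 and U4.1. The other 34 copies held 124 to 19014 RT stops over the 6 libraries, with a median of 2025.5, led by U4.8 (19014) and U4.4 (18906). These counts are not levels of RNA, because copies that share bases can share the same reads and the copies differ in length.

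**Figure D1:**
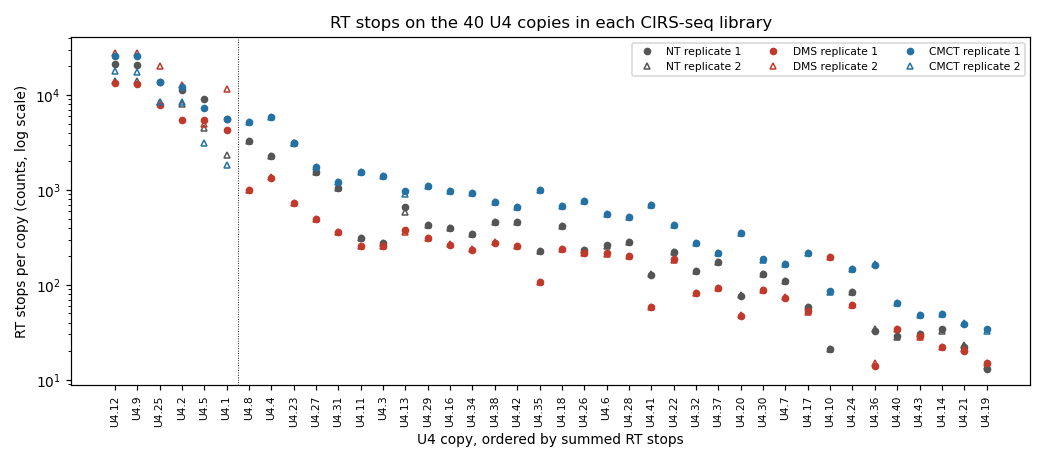
RT stops (counts, log scale) of each of the 40 U4 copies, ordered by their sum over the libraries, with a filled circle for replicate 1 and an open triangle for replicate 2 of NT, DMS and CMCT. Left of the dotted line the replicates of U4.12, U4.9, U4.25, U4.2, U4.5 and U4.1 lie apart; right of it, from U4.8 with 19014 RT stops down to 124, the symbols of both replicates cover each other in nearly every copy.

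The counts of several copies were those of the same stops. At U4 position 1, DMS held 473 and 8259 RT stops on both U4.12 and U4.9, and 471 and 8257 on each of U4.25, U4.2 and U4.1. U4.25 and U4.1 begin with the same bases as U4.12, but U4.2 has A in place of G at position 9. At that A, NT held 2462 and 1489 RT stops on U4.2, against 2470 and 1497 at G9 of U4.12. Counts were thus shared across a mismatch too. At position 10, NT held 3386 and 809 RT stops on U4.12, 3378 and 801 on U4.25, 3374 and 798 on U4.2, and 3371 and 793 on U4.5. The 25 bases that follow a position of U4.12 occurred at 2 to 8 places of the genome for positions 1 to 62 and at 1 place from 63 to 98. Only 9.29% of the RT stops of U4.12 and 8.58% of those of U4.9 lay at positions whose 25 following bases occur once, against 98.2% for U4.8. Occurring once was judged on exact bases, so such positions can still share stops with a copy that differs by a base. Upstream of position 63 the values therefore describe U4 RNA of this sequence, not 1 gene. Where a difference between the leading pair lies within those 25 bases (63 to 98), U4.12 held 1814 and 1623 RT stops in NT, 836 and 1272 in DMS, and 2870 and 2717 in CMCT. U4.9 held 1669 and 1595, 725 and 1091, and 2595 and 2506 there. U4.12 was the higher of both in each of the 6 libraries, with 11132 RT stops against 10181 in all. Replicates were equal over much of this stretch, as described below, so these are not 6 independent comparisons. The order was the reverse over 85 to 104, which lies partly in this stretch. There U4.9 held 146 and 149 RT stops in NT, 333 and 333 in DMS, and 220 and 220 in CMCT. U4.12 held 119 and 119, 328 and 329, and 206 and 206. Over the positions counted, the profile of U4.9 was the most like that of U4.12, with a Pearson correlation of log2 counts of 0.980 to 0.994 over 96 positions in the 6 libraries, 46 of these positions being equal in every library. The next, U4.25, had 0.58 to 0.78 over 72 positions. These correlations are a description, since the copies share reads.

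In the RNA-seq library, which was depleted of ribosomal RNA and prepared otherwise than the CIRS-seq libraries, the same copies led by far more. U4.12 held 41728 and U4.9 held 40636 of the 82420 U4 alignments, or 1872 and 1823 CPM of the alignments placed on 1 gene. The other 38 copies held 56 alignments in all, and 26 of them none, which allows up to 0.135 CPM for each. By read name the alignments came from 54466 reads, since 27937 reads were listed at both U4.12 and U4.9. Of the 26490 reads listed at only 1 of that pair, 13791 were on U4.12 and 12699 on U4.9, so that U4.12 took 52.1% of them (95% Wilson interval 51.5 to 52.7). U4.12 or U4.9 held 99.9% of the U4 reads (99.90 to 99.95). U4.25, which came next by RT stops, held 19 alignments, U4.2 held 8, U4.1 held 5, and U4.5 was listed at 0. This is 1 library without a replicate, and the intervals cover counting error only. U4atac, the counterpart of U4 in the minor spliceosome, held 86 alignments (3.86 CPM).

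**Figure D2:**
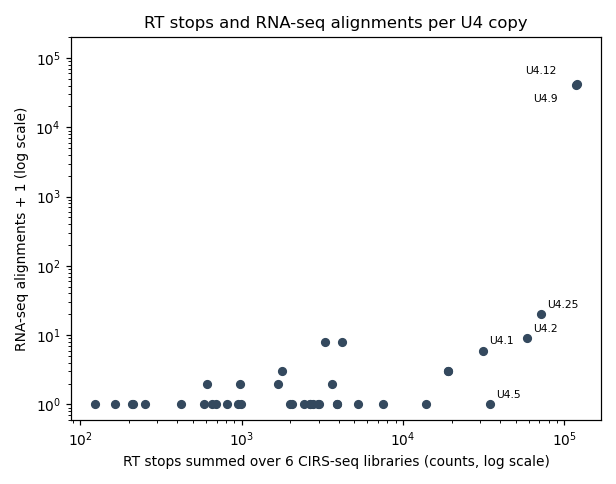
RT stops summed over the 6 CIRS-seq libraries (x axis, counts, log scale) against RNA-seq alignments plus 1 (y axis, log scale), with a point for each of the 40 U4 copies and names beside those with the most RT stops. U4.12 and U4.9 stand alone at 41728 and 40636 alignments, while U4.25, U4.2, U4.5 and U4.1, with 31143 to 72113 RT stops, sit at 0 to 19.

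Agreement between replicates depended on the position along U4.12. For positions 1 to 49 the raw counts of the replicates differed widely. Their chi-square per position came to 68.7 (NT), 344 (DMS) and 63.4 (CMCT). The counts were not scaled by library depth, so counting error alone gives a value near 1 only for libraries of equal depth. The CMCT libraries held 338201940 and 181944556 counted RT stops in all, and the part of depth in these values was not tested. For positions 50 to 79 the values were 1.39, 8.47 and 0.276, and for 80 to 104 they were 0.195, 0.192 and 0.208. From position 88 onward, the replicates of each treatment were within 1 count of each other at every position. Independent libraries would differ by more, so where the replicates differed by less than the sampling noise they were counted as 1 sample and their values are given without a test. This covers CMCT from position 50, NT in the stem I strand (56 to 62, 0.0879) and all treatments from position 80. It was also applied to single positions elsewhere whose replicates were within 1 count of each other in a treatment compared. Of the 40 copies, 33 had such equal replicates over their whole length, with a largest difference of 11 counts, 6 had replicates that differed (the 6 described in full), and U4.13 was in between, with a largest difference of 73 counts. In U4.25, U4.2, U4.5 and U4.1 the differences lay at U4 1 to 19, where many stops are shared with U4.12. Over 20 to 52, U4.25 held 1167 and 1167 RT stops in NT, 642 and 640 in DMS, and 2194 and 2194 in CMCT.

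**Figure D3:**
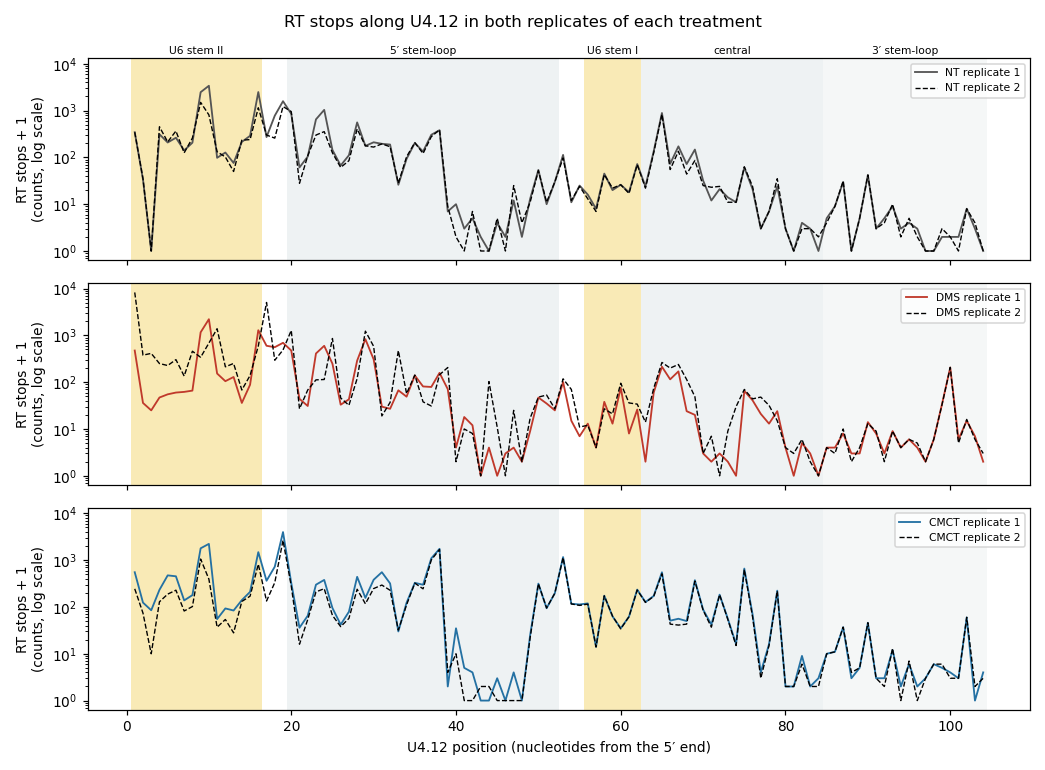
RT stops plus 1 (counts, log scale) along U4.12 (x axis, nucleotides from the 5′ end), with a panel each for NT, DMS and CMCT and a line each for replicate 1 (solid) and replicate 2 (dashed). The shaded U6 stem II and 5′ stem-loop show replicates that part, most of all in DMS with 473 against 8259 RT stops at position 1, and the lines of both replicates merge toward the 3′ end.

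DMS replicate 2 stood apart from the other libraries at the 5′ end. Position A1 held 344 and 344 RT stops in NT, 551 and 243 in CMCT, 473 in DMS replicate 1 and 8259 in DMS replicate 2. Position A17, in the linker between stem II and the 5′ stem-loop, held 271 and 299 in NT, 362 and 133 in CMCT, 598 in DMS replicate 1 and 5042 in DMS replicate 2. Together they took 47.9% of the U4.12 RT stops of DMS replicate 2, against 8.01% in DMS replicate 1 and 2.11% to 4.56% in the other 4 libraries. A17 did not pass the test (adjusted p = 0.073), and A1 had equal replicates in NT. Since a position is measured as its share of the stops of the copy, this also lowers the share of every other position in that library, and its part in the falls reported below was not tested.

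The NT libraries showed natural stops at the 5′ end of U4. C10 held 3386 and 809 RT stops in NT, G9 held 2470 and 1497, C16 held 2487 and 1147, and U19 held 1585 and 1219. Positions 1 to 19 took 63.04% and 55.1% of the NT stops of U4.12. This share was 58.6% and 71.7% in DMS, which overlapped NT, and 51.7% and 38.5% in CMCT, both below NT. Further natural stops stood at A65 in the central region (887 and 833) and at A20, the base that opens the 5′ stem-loop (852 and 951).

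The base at the stop differed between treatments. A took 16.2% and 23.9% of the U4.12 RT stops in NT, 30.9% and 74.9% in DMS, and 11.6% and 11.9% in CMCT, from 26 of the 104 positions counted. U took 23.5% and 28.7% in NT, 16.4% and 7.81% in DMS, and 46.5% and 52.4% in CMCT, from 29 positions. The shares of the DMS and NT libraries did not overlap for A, nor those of CMCT and NT for U. An exact permutation test of 2 libraries against 2 cannot go below a two-sided p of 0.333. C took 34.2% and 22.1% in NT, 31.4% and 9.68% in DMS, and 23% and 16.8% in CMCT, so that DMS and NT overlapped for C, the other base that DMS modifies. G was at 26.1% and 25.2% in NT, 21.2% and 7.61% in DMS, and 18.9% in both CMCT libraries. The median log2 fold change of the tested positions in DMS against NT was 1.63 for A, -0.48 for C, -0.89 for G and -1.27 for U, and in CMCT against NT it was -0.41 for A, 0.01 for C, -0.18 for G and 1.38 for U.

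Single positions were compared with the quasi-likelihood test of edgeR, as the share of the RT stops of the copy at that position, over 815964 positions of all genes. Of the 78 U4.12 positions tested, 21 passed an adjusted p of 0.05 in DMS against NT, where 24.3% of all positions tested passed, and 11 in CMCT against NT, where 9.29% passed. In DMS 10 positions were higher, 9 of them A and 1 C, and 11 were lower (4 U, 3 C, 3 G and 1 A). In CMCT 9 were higher (5 U, 2 A and 2 C), all between positions 51 and 102, and 2 A were lower. With the library size in place of the total of the copy as the offset, the balance was 6 higher and 23 lower in DMS and 13 higher and 1 lower in CMCT. Of the 10 positions higher in DMS, 9 were positions without a partner in the known fold and 1 was paired within U4. Of the 11 lower in DMS, 7 were without a partner, 2 were paired with U6 and 2 within U4. Of the 9 higher in CMCT, 6 were without a partner, 1 was paired with U6 and 2 within U4. Among the 104 positions counted, 53 were without a partner, and these held 20 of the 26 A and 18 of the 29 U. The part of base content in these splits was not tested. These calls rest in part on equal replicates: 28 of the 78 positions had replicates within 1 count of each other in at least 1 treatment. With such positions left out over all genes, none of the remaining 50 U4.12 positions passed in DMS or in CMCT, where 0.95% and 0.287% of all positions did. Those 50 include G14, G15, A25, A30, G32 and A39 in DMS and A20 in CMCT. Their adjusted p-values given below have this limit. No position passed in DMS without NT replicate 1, without NT replicate 2 or without DMS replicate 2, and 17 did without DMS replicate 1. No position passed in CMCT without any 1 of the NT or CMCT libraries.

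**Figure D4:**
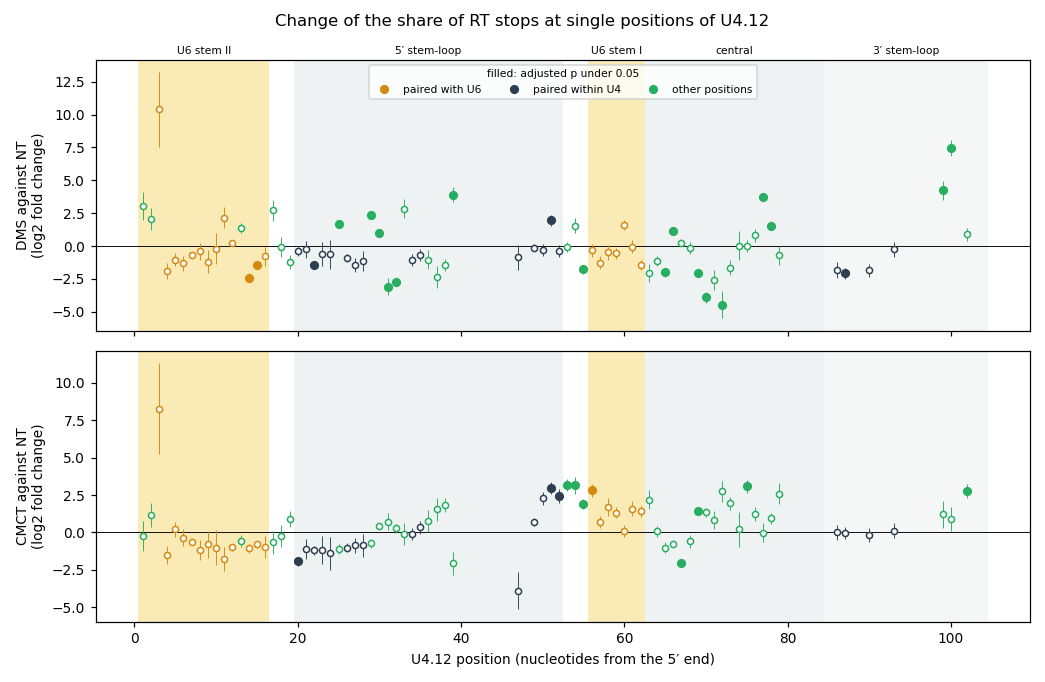
Log2 fold change (y axis) of the share of RT stops in DMS against NT (top) and CMCT against NT (bottom) at each tested position of U4.12 (x axis, nucleotides from the 5′ end), with bars for the standard error. Filled points passed an adjusted p of 0.05 on the counts as deposited, equal replicates included, and colours give the partner in the known fold (U6, U4 itself or none); the highest filled point in DMS is A100, and filled points in CMCT crowd between positions 51 and 56.

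The stretch that forms stem II with U6 stopped RT often in every treatment. Over positions 1 to 16, U4.12 held 10644 and 5993 RT stops in NT, 5983 and 14081 in DMS, and 8301 and 3730 in CMCT. The mean reactivity, which is a score from 0 (no more stops than NT) to 1 for the treated over NT ratio of either reagent, was 0.308 in this stretch, with 0.292 from replicate 1 alone and 0.306 from replicate 2 alone. Over its 13 bases paired with U6 the mean was 0.175, and 2 of them were highly reactive (over 0.7), C3 and A11. C3 had no NT stop in either replicate, 24 and 411 in DMS and 84 and 9 in CMCT, and A11 held 97 and 131 RT stops in NT and 152 and 1386 in DMS. A11 rests on DMS replicate 2, with a reactivity of 0.641 from replicate 1 alone, and did not pass the test (adjusted p = 0.123). G14 and G15, paired with U6 beyond the mismatch, had a lower share of stops in DMS than in NT. G14 held 213 and 232 RT stops in NT and 35 and 67 in DMS, a log2 fold change of -2.40 ± 0.34 (SE, adjusted p = 0.016). G15 held 288 and 239 in NT and 87 and 138 in DMS, a log2 fold change of -1.42 ± 0.24 (adjusted p = 0.021). No base of this stretch passed the test in CMCT.

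The strand of stem I gave few stops in NT and more in CMCT. Over positions 56 to 62, U4.12 held 198 and 191 RT stops in NT, 171 and 222 in DMS, and 695 and 685 in CMCT. The stretch thus took 0.94% and 1.36% of the stops in NT and 2.69% and 3.85% in CMCT, and in DMS 1.28% and 0.80%, which overlap NT. The mean reactivity was 0.679 (0.774 and 0.693 from either replicate alone), and 4 of its 7 bases were highly reactive. U56, at the end of the helix next to the 5′ stem-loop, took 0.0712% and 0.0851% of the RT stops of U4.12 in NT and 0.457% and 0.641% in CMCT. C58 held 44 and 42 in NT and 173 and 172 in CMCT, and A61 held 17 and 16 in NT and 61 and 61 in CMCT. A60 was the base with the higher DMS value, with 25 and 25 in NT and 75 and 94 in DMS (log2 fold change 1.60), and 34 and 33 in CMCT. U62 held 71 and 69 in NT, 25 and 33 in DMS, and 234 and 229 in CMCT, and G57, the weakly reactive base of the strand, 7 and 6 in NT and 13 and 13 in CMCT. NT and CMCT count as 1 sample here, so these differences, such as the log2 fold change of 2.81 of U56 in CMCT, have no replicate check. The counts of highly reactive paired bases, 4 of 7 in stem I and 2 of 13 in stem II, are a description without a test. The strands also differ in base content. Stem I holds 2 A, 3 U, 1 C and 1 G, and the paired bases of stem II are 1 A, 3 U, 4 C and 5 G. The part of base content in this contrast was not tested. Over all 23 bases of both stretches, A1, G2 and the mismatch included, 8 were highly reactive, and 3 were when Winsorised over positions above 0.

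**Figure D5:**
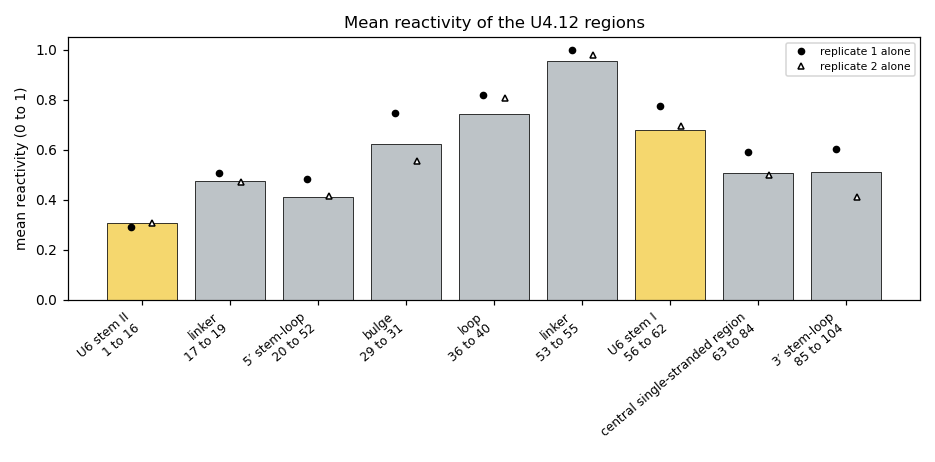
Mean reactivity (y axis, 0 to 1) of the regions of U4.12 from 5′ to 3′ (x axis, with their positions), as bars for both replicates summed and symbols for either replicate alone; the U6-pairing stretches are yellow, and the bulge and the loop are parts of the 5′ stem-loop. U6 stem II has the lowest bar at 0.308, the linker at 53 to 55 the highest at 0.956, and U6 stem I stands at 0.679.

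The 5′ stem-loop was reactive at its bulge and its terminal loop. Over positions 20 to 52 the mean reactivity was 0.413 (0.481 and 0.415 from either replicate alone), with 12 of 33 bases highly reactive, and over its 20 paired bases it was 0.252, with 4 highly reactive. The bulge at 29 to 31, part of the kink-turn, had a mean of 0.621 (0.747 and 0.553). A29 held 175 and 176 RT stops in NT, 828 and 1229 in DMS, and 155 and 116 in CMCT, a log2 fold change of its share in DMS of 2.35. A30 held 209 and 165 in NT and 308 and 583 in DMS (1.03, adjusted p = 0.020). That call was lost with the library size as the offset. U31 held 194 and 193 in NT and 29 and 18 in DMS, a log2 fold change of -3.07, and 552 and 293 in CMCT. Both had NT replicates within 1 count of each other. All the DMS values of A29 lay above and those of U31 below their NT values.

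The bases that form the G-A pairs of a kink-turn differed among themselves. G32 held 187 and 168 RT stops in NT and 26 and 36 in DMS, a log2 fold change of -2.69 ± 0.30 (adjusted p = 0.012). A33 held 25 and 27 in NT and 66 and 472 in DMS (adjusted p = 0.052). A44 held 0 and 0 in NT and 3 and 102 in DMS, and G43 had at most 1 stop in any library. DMS replicate 2 was the higher of both DMS libraries at A33 and at A44 by far more than counting error. A25, a bulged base within the lower stem, held 143 and 124 in NT and 247 and 857 in DMS (1.67 ± 0.32, adjusted p = 0.027), a call that was lost with the library size as the offset (adjusted p = 0.141).

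The loop of the 5′ stem-loop had a mean reactivity of 0.742 (0.818 and 0.808), with 4 of 5 bases highly reactive. U37 held 303 and 276 RT stops in NT, 78 and 30 in DMS, and 1093 and 1009 in CMCT, and U38 held 380 and 387 in NT, 157 and 143 in DMS, and 1746 and 1690 in CMCT. Every CMCT value lay above every NT value, but neither base passed the test in CMCT (adjusted p = 0.255 and 0.087). A39 was higher in DMS, with 6 and 8 RT stops in NT, 70 and 205 in DMS, and 1 and 3 in CMCT (log2 fold change 3.92 ± 0.58, adjusted p = 0.017). The loop thus showed U in CMCT and A in DMS side by side.

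The linker between the 5′ stem-loop and stem I had the highest mean reactivity of the regions, and its stops came from CMCT. U53 held 112 and 96 RT stops in NT and 1163 and 1128 in CMCT. A54 held 10 and 11 in NT, 14 and 69 in DMS, and 116 and 115 in CMCT, and U55 held 24 and 23, 6 and 10, and 112 and 107. All 3 linker bases were highly reactive, with a mean of 0.956. A51 and U52, the paired bases before them, held 93 and 94 and 196 and 196 in CMCT, against 9 and 10 and 29 and 29 in NT. On the counts as deposited these log2 fold changes in CMCT were 3.16 for U53, 3.14 for A54, 2.98 for A51, 2.44 for U52 and 1.91 for U55, without a test since the CMCT replicates are 1 sample here. A20, the partner of U52 in the closing pair of the 5′ stem-loop, was lower in CMCT, with 852 and 951 RT stops in NT and 325 and 278 in CMCT (-1.93 ± 0.32, adjusted p = 0.039), a call that was lost with the library size as the offset (adjusted p = 0.0801). In DMS A51 held 34 and 52 RT stops (log2 fold change 1.97).

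In the central single-stranded region (63 to 84) the mean reactivity was 0.505 (0.590 and 0.497), and 7 of 22 bases were highly reactive. Its bases differed by reagent. A77 held 2 and 2 RT stops in NT, 20 and 47 in DMS, and 3 and 2 in CMCT (log2 fold change in DMS 3.73), and A78 held 6 and 6, 12 and 31, and 15 and 14 (1.54). C75 held 60 and 62 in NT, 64 and 69 in DMS, and 660 and 629 in CMCT, the largest CMCT value of this region. C is not a base that CMCT is known to prefer, but the paper also observed reactivity of C with CMCT. U72 held 20 and 23 in NT, 2 and 0 in DMS, and 182 and 182 in CMCT, and U70 held 31 and 24, 2 and 2, and 87 and 84. U72 was lower in DMS than in NT, with a log2 fold change of -4.45 ± 1.04 (adjusted p = 0.043 by edgeR). This change was -7.77 to -3.03 with 1 library left out. The call was lost with a replicate block and with a minimum of 50 counts (adjusted p = 0.0510). The equal CMCT replicates at U72 also enter the spread behind its p-value, so its test is not free of equal counts. The log2 fold change of U70 was -3.90. A67 held 171 and 134 in NT and 55 and 40 in CMCT (-2.01). The values of the other bases are given without a test, since the replicates of NT at A77 and A78, of DMS at U70 and of CMCT over this stretch differed by less than the sampling noise. A region without partners therefore did not react evenly.

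Of the 3′ stem-loop, which opens at position 85, 20 of 33 bases were counted, with few stops. The last counted position of U4.12 was 104, and the 37 bases after it, with the rest of the 3′ stem-loop and the Sm site, held no RT stop in any library and were not measured. The last counted position was also 104 in U4.9, U4.4, U4.11 and U4.10, which are as long. In the RNA-seq library 32.8% of the U4.12 alignments (95% Wilson interval 32.3 to 33.2) reached past position 104, and bases up to 141 were covered. Over 85 to 104 there were 119 and 119 RT stops in NT, 328 and 329 in DMS, and 206 and 206 in CMCT, so each treatment was 1 sample. Of the DMS stops, 205 and 206 stood at A100, where NT had 1 and 1 and CMCT 3 and 2. C99, next to it, held 1 and 2 in NT and 33 and 32 in DMS. U102 held 7 and 7 in NT, 14 and 15 in DMS, and 59 and 59 in CMCT. A100 and U102 lie in the loop of the 3′ stem-loop.

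Over all 104 positions counted, 39 were highly reactive, 20 moderately (0.3 to 0.7) and 45 weakly or not. Some of the 39 rest on few stops: G88, U97, G98, A101 and U104 held at most 5 RT stops in any library. The Winsorising limit also took in the bases without any stop, which lowers the limit and raises the scores. Both limits apply to the shares that follow. Of the 53 positions without a Watson-Crick or G-U partner in the known fold, 28 were highly reactive (52.8%), against 5 of 31 paired within U4 (16.1%) and 6 of 20 paired with U6 (30.0%). The mean reactivities of these classes were 0.654, 0.235 and 0.352. The classes also differ in base content. Without a partner, 12 of 20 A, 12 of 18 U, 2 of 9 C and 2 of 6 G were highly reactive. Paired within U4, these were 1 of 3 A, 1 of 5 U, 1 of 11 C and 2 of 12 G. Paired with U6, they were 3 of 3 A, 1 of 6 U, 2 of 5 C and 0 of 6 G. The part of base content in the contrast between classes was not tested. The positions come from the same libraries, with equal replicates among them, so these shares are a description.

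A few bases of other copies, chosen after their values were seen, can be set beside those of U4.12. U4.8, at 98.2% of its RT stops free of other copies, held 127 and 128 RT stops at U38 in NT, 74 and 75 in DMS, and 1041 and 1040 in CMCT, and at U19 it held 847 and 846, 85 and 85, and 1909 and 1909. U4.11 held 15 and 14 RT stops at U53 in NT, 43 and 42 in DMS, and 402 and 403 in CMCT. U4.10, which aligns from U4 24 only, held 0 and 0 RT stops at A100 in NT, 146 and 145 in DMS, and 2 and 2 in CMCT. Stops of U4.25 ended early: it held 2194 and 2194 RT stops over 20 to 52 in CMCT, 21 and 21 over 53 to 55 and none over 56 to 62, although its bases there are those of U4.12 and U4.12 held 695 and 685. U4.2 held 1 and 1 over 56 to 62 in CMCT, and U4.5 and U4.1 none. U4.9 held 193 and 174 RT stops over 56 to 62 in NT, 155 and 213 in DMS, and 673 and 664 in CMCT, close to those of U4.12. The stem I values above were thus not shared with the copies that end near position 77.

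Summed over each copy, the treatments were compared over 13216 genes. Of the 40 copies, 22 passed in DMS against NT, 1 higher and 21 lower, where 26.4% of all genes passed, and 12 passed in CMCT against NT, all higher, where 29% passed. The 6 copies with replicates that differed share many of their stops and are not separate results. None of the 6 passed by edgeR with the settings used here in either comparison, with 1 at an unadjusted p under 0.05 in each. Their log2 fold changes were -0.79 to 0.60 in DMS, with a lowest adjusted p of 0.087, and -0.93 to -0.19 in CMCT, with a lowest adjusted p of 0.050. The lowest was that of U4.5 in both, which passed by DESeq2 in each (adjusted p = 0.0170 in DMS and 0.00163 in CMCT) and by edgeR with a replicate block (adjusted p = 0.0325 and 0.00914). By edgeR it also passed in CMCT with no filter on low counts (adjusted p = 0.0494) and without CMCT replicate 1 (adjusted p = 0.0356), and U4.2 passed in DMS without DMS replicate 2 (adjusted p = 0.00960) and with positions that occur once (adjusted p = 0.0169). U4.12 was at -0.20 ± 0.39 (SE, adjusted p = 0.733) in DMS and -0.19 ± 0.39 (adjusted p = 0.752) in CMCT, and U4.9 at -0.20 and -0.20. With positions that occur once in the genome, the values in DMS were -1.13 for U4.12 (adjusted p = 0.100) and -1.28 for U4.9 (adjusted p = 0.082), and those in CMCT 0.089 and 0.027. The passing copies had equal replicates, except U4.13 in DMS, and count as 1 sample per treatment, so their differences are values without a replicate check. The copy that was higher in DMS was U4.10, with 21 and 21 RT stops in NT, 198 and 197 in DMS, and 86 and 85 in CMCT. U4.8 held 3294 and 3295 in NT, 990 and 993 in DMS, and 5222 and 5220 in CMCT. Scaling by library totals, which moves the median log2 fold change of all genes from 0.01 to 0.54 in DMS and from 0.11 to 0.49 in CMCT, left 7 copies past the threshold in DMS, and turned U4.12 to 0.35 in DMS and 0.19 in CMCT. No direction is therefore given for U4 as a whole.

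Of 32 gene names for proteins of the U4/U6.U5 tri-snRNP and of U4 recycling, 29 were listed and tested. In DMS against NT 1 passed as higher and 2 as lower, where 26.4% of all genes passed, with a median log2 fold change of -0.10 against 0.01 for all genes, and in CMCT none passed as higher and 1 as lower, where 29% passed, with a median of 0.15 against 0.11. Snrpf, a protein of the Sm ring, was higher in DMS (1004 and 685 RT stops in NT, 2100 and 3412 in DMS, log2 fold change 1.28 ± 0.30, adjusted p = 0.00748), and Snrpb, of the same ring, was lower (2941 and 2194, 2224 and 1905, -0.76 ± 0.24, adjusted p = 0.034). Ddx23, a helicase that joins with the U5 snRNP, was lower in both, with 127852 and 115865 RT stops in NT, 29926 and 30710 in DMS, and 43376 and 30793 in CMCT (log2 fold changes -2.47 and -2.24, adjusted p = 0.00125 and 0.00179). The proteins that hold or open the U4/U6 duplex did not pass: Nhp2l1 was at -0.31 in DMS and -0.22 in CMCT, Prpf31 at 0.50 and 0.46, Snrnp200 at -0.41 and 0.09, and Sart3 at -0.22 and 0.44. Prpf4 and Prpf3, also on the list, went opposite ways and missed the threshold by edgeR. Prpf4 was at 0.78 in DMS (adjusted p = 0.053) and 0.60 in CMCT, and Prpf3 at -0.74 (adjusted p = 0.081) and -0.32. These are counts of RT stops on mRNAs in lysate, and treatment, not expression, is what differs between the groups.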

How the data were processed

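CIRS-seq libraries of E14 ESC lysate (NT, DMS and CMCT, 2 biological replicates each, grouped per the labels) and 1 RNA-seq library were used. The authors deposited raw counts of RT stops per transcript position, already placed on the modified base, and not normalized; reads had been mapped to a variant of mm9 with E14 single-nucleotide variants. The submitters' processing notes name Bowtie 1.0.0, FastQC 0.10.1, TopHat2 2.0.6 and bedtools 2.17.0. How reads with several places were counted is not given in the sources used here. The RNA-seq alignments were deposited with a score column, which is 0 for the U4 alignments and was not used: alignments were counted, by the gene that holds their midpoint, so stops shared by near-identical copies cannot be assigned to 1 copy in either assay. Of 26827 transcripts, 26792 were matched to GENCODE vM1 and genomic sequence was read from mm9. Files with both replicates together were not used.

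Library depth was the total of RT stops over all transcripts listed, in which a stop listed on several transcripts counts each time. Copies were aligned to U4.12 with Biopython 1.88. Counts per gene, each genomic position once, went into 1 edgeR 4.0.16 fit of all 6 libraries (R 4.3.3) with TMM scaling, the filterByExpr filter and a quasi-likelihood test, and p-values were adjusted by Benjamini-Hochberg at 0.05. Counts per position, in positions with at least 10 counts in at least 2 libraries of the longest transcript of each gene, were tested likewise with the transcript total of each library as the offset and the dispersion trend from 20000 positions. Both fits were tested on simulated data. A reactivity was taken as log2 of the treated count divided by the NT count (pseudocount 1, both replicates summed, each scaled to the transcript mean), set to 0 where negative or without a treated stop, Winsorised at the 90th percentile, and the larger of DMS and CMCT was taken; below 0.3 and above 0.7 were called weakly and highly reactive. The U4 bases that pair with U6 were found by complementarity, and the U6 sequence is not reported here; pairs of the 5′ stem-loop follow the known fold, and the 3′ stem-loop was folded with ViennaRNA 2.7.2. Copies described in full were the 6 with the largest sums, which include U4.12. The positions named were all those of the U6-pairing stretches by count and range. In each comparison they were also the 8 with the largest change up and the 5 with the largest change down, among those past the threshold and alike in both replicates. Other positions (A1, A17, A30, A33, U37, U38, A44 and the natural stops) were chosen after their values were seen. The members, the rule and the list of tri-snRNP proteins were chosen with earlier results of these data known.

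Alternatives were DESeq2 1.42.0, no filter, library totals without TMM, each replicate left out, a replicate block, positions whose 25 following bases occur once, a minimum of 50 counts, another offset, a pseudocount of 5, other scaling and Winsorising, and all copies summed. Leaving out positions with replicates within 1 count of each other was chosen after seeing the data. Python 3.11.15, numpy 2.4.6, pandas 2.3.3, pysam 0.24.0, numba 0.67.0 and matplotlib 3.10.9 were used.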

Additional observations from a re-analysis of the deposited data

Results flagged for a closer look

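The RNA-seq library, which enters no comparison between treatments, held more U4 alignments on 7 copies than the limit that a count of 0 allows (3 alignments). There were 41728 alignments on U4.12, 40636 on U4.9, 19 on U4.25, 8 on U4.2, 7 each on U4.11 and U4.16, and 5 on U4.1. A further 7 copies held 1 to 3. Of the 56 reads on copies other than U4.12 and U4.9, 17 were also listed at 1 of that pair.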

How the results depend on the processing

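For all values, reads of copies with the same bases cannot be told apart, 2 replicates per treatment are 1 sample where their counts are equal, and the last 37 bases of U4.12 were not counted. In the self-made simulations the test of positions was weak, so positions that missed the threshold are not shown to be alike. The fold changes of single copies and positions gave the same call and sign in 149 alternatives, lost the call in 107, gained it in 8 and turned direction in 16.

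With positions that occur once in the genome, 6 copies passed in DMS (22 in the report) and none in CMCT (12), 8 of 21 testable positions passed in DMS and 3 in CMCT, and U4.12 and U4.9 took 20.8% of the RT stops. Library totals without TMM left 7 copies in DMS. Leaving out 1 library gave 5 to 16 copies in DMS and 4 to 17 in CMCT, 0 to 17 positions in DMS and 0 in CMCT; the lowest came without NT replicate 1 or 2 and, for positions in DMS, also without DMS replicate 2. Without positions of equal replicate counts, 0 positions passed in either. DESeq2 and no filter on low counts changed no count by over 1.5 times.

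Directions turned as follows, in log2 fold change. In DMS, library totals gave 0.35 for U4.12 and U4.9, 0.48 for U4.25 and 0.039 for U4.2. Leaving out 1 library gave -1.02 to 0.25 for U4.12 and for U4.9, -1.10 to 0.47 for U4.25 and -0.52 to 1.17 for U4.1, turning without DMS replicate 1 for the former copies (and for U4.25 also without NT replicate 1) and without DMS replicate 2 for U4.1. U4.1 was at -0.26 with unique positions. In CMCT, library totals gave 0.19 for U4.12 and 0.18 for U4.9, and unique positions gave 0.089, 0.027, 0.71 for U4.25 and 1.30 for U4.1.

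Mean reactivities moved with the Winsorising over positions above 0, to 0.237 for U6 stem II, 0.326 for the 5′ stem-loop, 0.393 for its bulge, 0.610 for its loop, 0.522 for U6 stem I and 0.401 for the central region, and with it 3 residues in the U6-pairing stretches (8 of 23 in the report) and 1 in the loops (5 of 8) were highly reactive. A pseudocount of 5 gave 0.321 for U6 stem II, 0.833 for the loop, 0.779 for U6 stem I and 0.358 for the 3′ stem-loop. Scaling to the library total gave 0.329 for U6 stem II and 0.759 for the loop, and all copies summed gave 0.286, 0.820 and, for the bulge, 0.428. Without either replicate U6 stem II was at 0.292 to 0.306, the 5′ stem-loop at 0.415 to 0.481, the bulge at 0.553 to 0.747, the loop at 0.808 to 0.818, U6 stem I at 0.693 to 0.774, the central region at 0.497 to 0.590 and the 3′ stem-loop at 0.409 to 0.601. U6 stem I stayed above U6 stem II, which is richer in C and G, in each of these settings for which both values are given. The causes were not tested.

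Whether the replicate numbers pair the libraries is not given by the labels and was not settled by the counts: the deviations of same-numbered libraries had a correlation over 13070 genes of 0.587 for NT and DMS, -0.064 for NT and CMCT and -0.097 for DMS and CMCT. With a replicate block 28 copies passed in DMS and 14 in CMCT, and 23 positions in DMS and 2 in CMCT.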

Other observations

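Other snRNAs were counted in the same libraries. U4atac, which pairs with U6atac in the minor spliceosome, held 823 and 731 RT stops in NT, 988 and 1157 in DMS, and 1257 and 951 in CMCT, and the leading U6atac copy held 1055 and 989, 908 and 1456, and 904 and 748. Per base of the transcript and summed over both replicates, U4.12 had 249 RT stops in NT, 292 in DMS and 309 in CMCT, and U4atac 12.4, 17.2 and 17.7. U5, which joins U4 and U6 in the tri-snRNP, had 302, 315 and 800 per base on its leading copy. U11 was a further snRNA in which DMS replicate 2 stood far above the other libraries, with 14063 RT stops against 1270 in DMS replicate 1.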
